A study of Homo sapiens with 8 samples.

Results

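The genes described here make cholesterol and fatty acids or regulate that synthesis. They were taken as a list of 32 gene symbols, 18 of sterol synthesis, 5 of the SREBP pathway and 9 of fatty acid synthesis, and all 32 were found among the 56638 symbols of both count tables. The list was selected on pathway membership with the log2 fold changes of these genes in each knockdown, and their difference between sterol and fatty acid genes, already known, so the changes and calls given for them describe these libraries and are not independent evidence.

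RNA was sequenced from SCC25 cells, a widely used line from a squamous carcinoma of the head and neck, to follow the consequences of short and prolonged loss of the transcription factor ETS1. In the siRNA experiment, cells were transfected with non-targeting siRNAs (siRNA control) or with a pool of 4 siRNAs against ETS1 (ETS1 siRNA). In the shRNA experiment, cells were transduced with lentivirus carrying a non-targeting hairpin (shCON) or a single ETS1-targeting hairpin, shETS1-3 (shETS1), and selected with puromycin at 2 μg/ml. Each of the 4 groups had 2 libraries, and all cells were kept in medium with serum and hydrocortisone. The time from transfection or transduction to harvest, and whether the stable lines were pools or clones, are not given in the sources used here.

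Total counts ranged from 15954616 to 25953213 a library. ETS1 itself was at 288 and 248 CPM in siRNA control and at 17.4 and 13.2 CPM in ETS1 siRNA, and at 82.3 and 72.1 CPM in shCON and 9.76 and 11.1 CPM in shETS1, so no knockdown library overlapped its controls. CPM are counts relative to the scaled library size, set within each experiment and not compared across them. The shRNA libraries also held RNAs without a poly(A) tail (RN7SK, RN7SL1, RN7SL2, RPPH1 and RMRP), at 5.61% and 6.63% of the counts in shCON and 12.3% and 9.64% in shETS1, against at most 0.00339% in the siRNA libraries.

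Cells make cholesterol from acetyl-CoA through mevalonate, isoprenoids, squalene and lanosterol, and make saturated and unsaturated fatty acids from the same acetyl-CoA through malonyl-CoA. Both routes are switched on by the sterol regulatory element binding proteins (SREBPs), membrane-bound transcription factors that SCAP escorts to the Golgi for cleavage when sterols are low and that INSIG proteins hold back when sterols are high. SREBF2 acts mostly on sterol genes and SREBF1 mostly on fatty acid genes, and on many of these promoters the SREBPs work together with the CCAAT-binding factor NF-Y.

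Promoter windows from 250 bases before to 50 bases after a start site were taken from RefSeq on GRCh38.p14. They were found for 28 of the 32 genes, as 39 windows, since several genes have more than 1 start. A set of 4 short motifs was searched on both strands, and 21 of the 28 genes held an NF-Y box (CCAAT) in at least 1 window. By window the share was 25 of 39, or 64.1%, against 34.6% of all 35114 windows. The box was in 13 of 15 sterol genes, 3 of 5 SREBP pathway genes and 5 of 8 fatty acid genes. The sterol regulatory element, searched as TCACNCCAC, was found only in the window of SREBF2, against 1.13% of all windows. The E-box CACGTG was in 12.8% of the members' windows and 7.26% of all. The ETS core CCGGAAG was in 3 windows of members (7.69%), those of IDI1, FDPS and CYP51A1, against 10.3% of all windows. Windows of 1 gene can overlap, and a match is a description of these letters, not of binding.

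The bases before the start site are shown for 6 genes that hold matches to the 4 motifs. They run from the 5′ to the 3′ end of the gene's strand, with the matches in capitals. SREBF2 (chr22:41832855-41833104, plus strand) carries the sterol regulatory element 133 bases before its start and an NF-Y box, read as ATTGG on the other strand. STARD4 (chr5:111512536-111512785, minus strand), SCD (chr10:100346983-100347232, plus strand) and HMGCS1 (chr5:43313413-43313662, minus strand) each carry a pair of NF-Y boxes and fell in shETS1. The window of ELOVL6, whose fall was larger than those of STARD4 and HMGCS1, held none of the 4 motifs. Nor did the windows of LPIN1, the member that rose most in shETS1. Those of MVK and MSMO1, which rose, also held NF-Y boxes. SC5D (chr11:121292521-121292770, plus strand), the sterol gene that rose most, carries an E-box and an NF-Y box. IDI1 (chr10:1056705-1056954, minus strand, the most upstream of its 3 windows) carries 4 ETS cores and no NF-Y box. The other windows of IDI1, not shown, are the reverse, with NF-Y boxes and no ETS core.
SREBF2: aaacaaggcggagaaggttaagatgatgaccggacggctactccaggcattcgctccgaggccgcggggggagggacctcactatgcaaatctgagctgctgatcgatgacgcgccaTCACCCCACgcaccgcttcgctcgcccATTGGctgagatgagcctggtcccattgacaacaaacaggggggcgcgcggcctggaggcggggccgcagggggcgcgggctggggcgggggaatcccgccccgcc
STARD4: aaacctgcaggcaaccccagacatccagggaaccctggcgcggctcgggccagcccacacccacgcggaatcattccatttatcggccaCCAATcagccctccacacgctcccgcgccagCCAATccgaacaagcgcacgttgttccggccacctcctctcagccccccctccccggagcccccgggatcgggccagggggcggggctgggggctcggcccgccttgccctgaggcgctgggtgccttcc
SCD: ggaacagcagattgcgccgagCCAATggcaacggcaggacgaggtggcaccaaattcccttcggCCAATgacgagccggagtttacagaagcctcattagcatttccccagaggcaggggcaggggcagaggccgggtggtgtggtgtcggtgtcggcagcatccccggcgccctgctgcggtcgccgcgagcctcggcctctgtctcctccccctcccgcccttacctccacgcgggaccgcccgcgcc
HMGCS1: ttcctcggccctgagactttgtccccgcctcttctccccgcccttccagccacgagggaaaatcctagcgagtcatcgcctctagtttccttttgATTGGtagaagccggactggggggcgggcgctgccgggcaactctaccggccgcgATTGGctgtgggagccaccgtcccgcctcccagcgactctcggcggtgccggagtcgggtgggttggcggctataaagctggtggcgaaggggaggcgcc
SC5D: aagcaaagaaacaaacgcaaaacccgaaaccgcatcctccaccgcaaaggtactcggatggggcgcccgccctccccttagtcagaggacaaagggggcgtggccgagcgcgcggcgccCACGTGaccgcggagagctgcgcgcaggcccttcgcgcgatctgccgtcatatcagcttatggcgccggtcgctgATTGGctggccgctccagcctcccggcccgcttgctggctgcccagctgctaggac
IDI1: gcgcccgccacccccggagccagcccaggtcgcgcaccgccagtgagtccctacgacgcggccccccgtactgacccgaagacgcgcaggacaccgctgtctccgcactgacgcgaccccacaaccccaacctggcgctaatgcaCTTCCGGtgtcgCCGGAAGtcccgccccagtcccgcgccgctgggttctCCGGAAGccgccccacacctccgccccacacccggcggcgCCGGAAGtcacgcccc

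SCC25 cells expressed all 32 genes. Per length, in TPM, which divides counts by exon length before scaling, the siRNA control libraries had most of ACLY, at 219 ± 23.5 TPM (SD, n = 2), followed by EBP at 167 ± 1.96 TPM. SQLE, SCD and PMVK came next at 120.3, 118 and 116 TPM and overlapped each other between libraries. The shCON libraries had most of EBP, at 164 ± 4.51 TPM, then ACLY at 130.3 ± 12.4 TPM and SCD at 86.6 ± 14.6 TPM, with no overlap between these neighbours. ACLY makes cytosolic acetyl-CoA, the carbon source of both routes, EBP is a sterol isomerase and SQLE oxidizes squalene. The lowest level in both controls was that of the desaturase FADS2, at 2.14 ± 0.0283 TPM in siRNA control and 0.892 TPM in shCON.

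Most of these genes were higher or lower in the stable knockdown, and few passed the test in the siRNA knockdown. A gene was called when its Benjamini-Hochberg adjusted p in edgeR's quasi-likelihood test, taken over all genes tested, was under 0.1, and all 32 members passed the filter on low counts in each comparison. In shETS1, 27 of the 32 members were called (84.4%), 8 higher and 19 lower, where 60.6% of all 16481 genes tested were called, 29.7% higher and 30.9% lower. In ETS1 siRNA, 2 of the 32 were called, ACLY and ACSL3, both lower, where 3.41% of 14742 genes were called, 1.13% higher and 2.27% lower. A further 5 members had an unadjusted p under 0.05 there, and over all genes tested 2721 did, the called ones included. The members' median log2 fold change was -0.29 in shETS1 and 0.06 in ETS1 siRNA, against 0.000664 and 0.00182 over all genes tested. The plot of both knockdowns shows that the largest changes in shETS1 belonged to fatty acid genes.

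**Figure D1:**
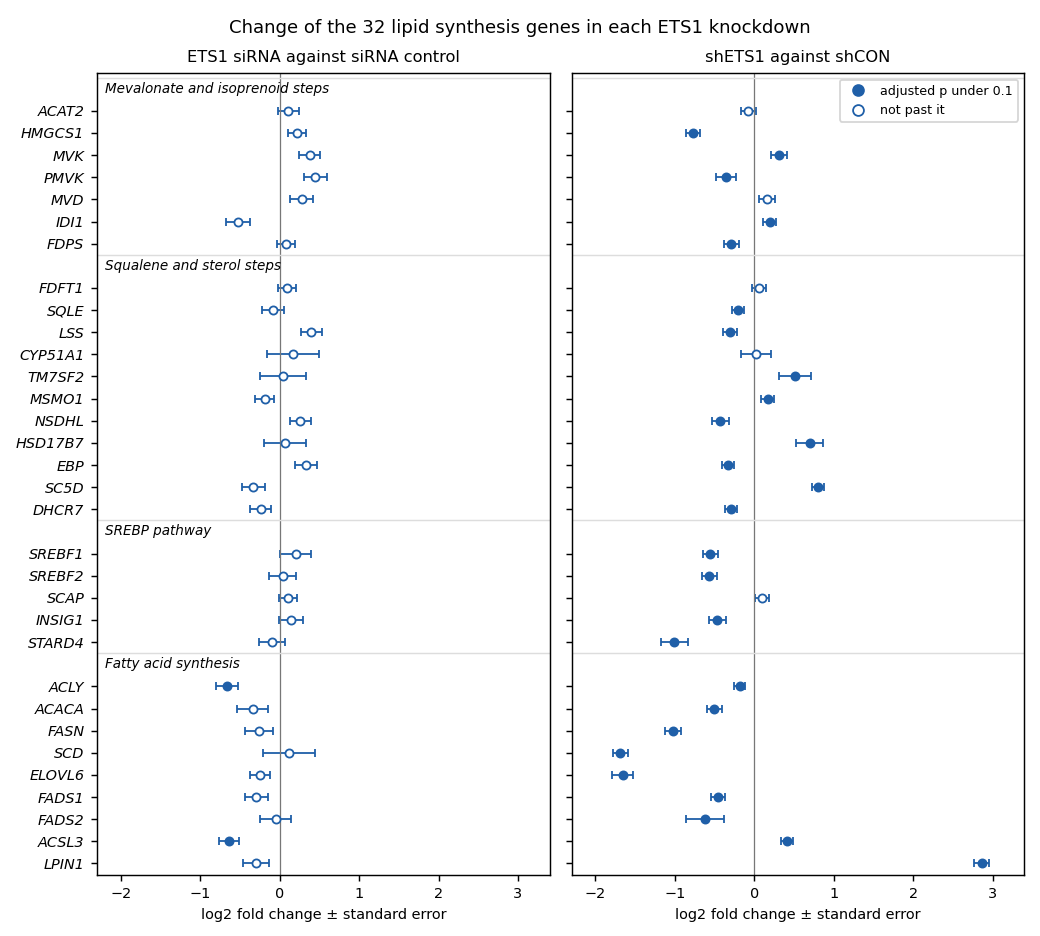
Log2 fold change (x axis, ± standard error) of each of the 32 genes (y axis, by role) in ETS1 siRNA against siRNA control (left) and shETS1 against shCON (right), 2 libraries a group, with filled circles for an adjusted p under 0.1. LPIN1 stands at 2.86 in shETS1 and SCD and ELOVL6 at -1.69 and -1.66, and only ACLY and ACSL3 are filled on the left.

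In the SREBP pathway, 4 of the 5 genes were called lower in shETS1, where 30.9% of all genes tested were. None of the 5 was called in ETS1 siRNA, where 3.41% of all genes tested were. SREBF1, whose product favours fatty acid genes, was at 44.5 and 39.9 CPM in shCON and 26.9 and 30.6 CPM in shETS1. SREBF2, whose product favours sterol genes, was at 31.3 and 29.8 CPM in shCON and 19.2 and 22.0 CPM in shETS1. The groups did not overlap for either gene. The 2 transcripts had log2 fold changes of -0.55 ± 0.093 (SE) and -0.57 ± 0.0974 and adjusted p of 7.52e-05 and 9.25e-05 by edgeR.

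STARD4, a carrier of cholesterol between membranes and an SREBF2 target, changed most of the 5. It was at 6.24 and 5.86 CPM in shCON and at 3.09 and 2.93 CPM in shETS1, a 2.01-fold fall. INSIG1, which retains the SREBPs in the endoplasmic reticulum and is itself an SREBP target, went from 19.4 and 18.5 CPM to 13.2 and 14.3 CPM, a log2 fold change of -0.46. SCAP, the escort, was the exception: its levels of 41.2 and 38.0 CPM in shCON and 44.2 and 40.3 CPM in shETS1 overlapped. Its log2 fold change was 0.09 ± 0.0859 and was not called.

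In the siRNA libraries the groups overlapped for 4 of the 5 genes. How many of all genes overlapped was not counted, so overlap only describes these libraries. The groups of FDPS, FDFT1 and FADS2 did not overlap there either, with adjusted p of 0.754, 0.727 and 0.919 by edgeR. SREBF1 was at 63.4 and 90.7 CPM in siRNA control and 98.8 and 78.3 CPM in ETS1 siRNA, and SREBF2 at 92.1 and 105 CPM and 115 and 87.2 CPM. For each, 1 knockdown library lay above both controls and the other did not. INSIG1 was at 24.8 and 28.7 CPM and then 31.8 and 27.0 CPM, and STARD4 at 10.5 and 12.04 CPM and then 10.8 and 10.3 CPM, with overlap in both. SCAP alone did not overlap, at 42.7 and 43.5 CPM in siRNA control and 45.7 and 46.6 CPM in ETS1 siRNA, with a log2 fold change of 0.10 that was not called. SREBF1 shares 6.75% of its exon length with RAI1 on the opposite strand, and STARD4 shares 2.18% with STARD4-AS1. Whether counting used strand is not given in the sources used here.

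The 18 sterol genes did not all move one way in shETS1, where 6 rose, 8 fell and 4 were not called. Their median log2 fold change was -0.03. Of all genes tested there, 29.7% were called higher and 30.9% lower. Among the first steps, which lead from acetyl-CoA to isoprenoids, HMGCS1 made the largest fall of the arm. HMGCS1 condenses acetyl-CoA units into HMG-CoA. It was at 41.6 and 41.3 CPM in shCON and at 23.6 and 24.9 CPM in shETS1, 1.71-fold lower, with a log2 fold change of -0.77 ± 0.0866 and an adjusted p of 8.25e-07 by edgeR. The kinase PMVK and the prenyl synthase FDPS fell less, by 0.36 and 0.29 on the log2 scale. The kinase MVK, between HMGCS1 and PMVK in the route, rose instead, by 0.31, and the isomerase IDI1 by 0.19. The thiolase ACAT2 and the decarboxylase MVD were not called, with log2 fold changes of -0.08 and 0.16.

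Downstream of squalene the changes were again mixed. The largest rise of the arm was that of SC5D, a desaturase of the last steps, which went from 46.1 and 46.4 CPM in shCON to 81.3 and 80.2 CPM in shETS1, 1.74-fold higher, with a log2 fold change of 0.80 ± 0.0751 and an adjusted p of 9.42e-08. DHCR7, the reductase that completes cholesterol after SC5D, fell by 0.29. The ketoreductase HSD17B7 rose by 0.70 and its partner in demethylation, NSDHL, fell by 0.43. The oxidase MSMO1, in the same demethylation complex, rose by 0.17 and the reductase TM7SF2 by 0.52. The cyclase LSS, the isomerase EBP and the epoxidase SQLE fell by 0.31, 0.33 and 0.20. FDFT1, which makes squalene, and the demethylase CYP51A1 were not called, with log2 fold changes of 0.06 and 0.02. Adjacent enzymes of the same route therefore went opposite ways in the same libraries.

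Several of these smaller shRNA calls were not firm. IDI1, TM7SF2 and MSMO1 were not called by DESeq2 (adjusted p = 0.183, 0.204 and 0.213). With library size alone as the scaling, the median of all genes moved to -0.12, MVK, IDI1, TM7SF2 and MSMO1 lost their calls, and the members' split became 4 higher and 20 lower. Leaving out 1 library also ended calls among the smaller falls. FDPS was not called without shCON replicate 2 or shETS1 replicate 2 (adjusted p = 0.126 and 0.144 by edgeR), PMVK without shETS1 replicate 1 (0.139), and SQLE without shCON replicate 1 or 2 (0.147 and 0.117). Of the rises, MVK was not called without shCON replicate 2 (0.122), IDI1 without shCON replicate 1 or shETS1 replicate 1 (0.511 and 0.197), TM7SF2 without shCON replicate 1 or 2 or shETS1 replicate 2 (0.130, 0.104 and 0.257), and MSMO1 without shCON replicate 1 or 2 or shETS1 replicate 1 (0.513, 0.110 and 0.237). SC5D and HSD17B7 stayed higher and HMGCS1 stayed lower under every setting tried. HSD17B7, CYP51A1 and FDPS have 2, 3 and 8 pseudogenes among the symbols of the tables, and SCD of the fatty acid arm has 1, and near-identical copies can take reads from each other.

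None of the 18 sterol genes was called in ETS1 siRNA, where 3.41% of all genes tested were. The median log2 fold change of the 18 was 0.10. An unadjusted p under 0.05 was found for 5 of them by edgeR, against 2721 of all 14742 genes tested. The largest rise was that of PMVK, from 24.7 and 28.7 CPM in siRNA control to 33.5 and 39.3 CPM, a log2 fold change of 0.45 ± 0.146 with an adjusted p of 0.171 by edgeR. LSS, MVK and EBP had log2 fold changes of 0.40, 0.38 and 0.33, with adjusted p of 0.177, 0.204 and 0.252 by edgeR. The largest fall was that of IDI1, from 41.1 and 35.9 CPM to 23.5 and 30.0 CPM, a log2 fold change of -0.52 ± 0.157 with an adjusted p of 0.147. SC5D went from 49.6 and 42.0 CPM to 33.2 and 39.7 CPM, and HMGCS1 from 57.1 and 52.4 CPM to 62.6 and 64.9 CPM, both opposite in direction to shETS1 and neither called. IDI1 shares 15% of its exon length with IDI2-AS1 on the opposite strand.

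Every one of the 9 fatty acid genes was called in shETS1, 7 lower and 2 higher. Of all genes tested there, 60.6% were called, 30.9% lower and 29.7% higher. The falls were largest for SCD, ELOVL6 and FASN. SCD, which desaturates stearoyl-CoA, was at 142 and 122 CPM in shCON and at 37.3 and 44.7 CPM in shETS1. That is 3.22-fold lower, the largest fall of any member, with a log2 fold change of -1.69 ± 0.0947 and an adjusted p of 1.49e-10 by edgeR. ELOVL6, which elongates palmitate, went from 21.1 and 18.9 CPM to 5.49 and 7.10 CPM, 3.16-fold lower. FASN, the fatty acid synthase, went from 67.3 and 55.7 CPM to 27.5 and 32.8 CPM, 2.04-fold lower. ACACA, which makes malonyl-CoA for FASN, fell by 0.50 on the log2 scale, and the desaturases FADS1 and FADS2 by 0.46 and 0.62. The fall of FADS2 was not called by DESeq2 (adjusted p = 0.183) or, by edgeR, without shCON replicate 1 (0.364), and FADS1 and FADS2 overlap on opposite strands. ACLY, at the head of the route, fell least, by 0.18, and was not called without shCON replicate 1 (adjusted p = 0.239 by edgeR).

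The 2 genes of this arm that rose do not make fatty acids. LPIN1 (chr2:11817721-11967535 on GRCh37, plus strand) removes phosphate from phosphatidic acid to give diacylglycerol, and its protein is also a nuclear coactivator that has been tied to SREBP repression. It was at 10.2 and 11.8 CPM in shCON and at 82.0 and 78.8 CPM in shETS1, 7.28-fold higher, the largest change of the 32 genes in either knockdown, with a log2 fold change of 2.86 ± 0.0943 and an adjusted p of 1.86e-13 by edgeR. ACSL3 (chr2:223725660-223809357, plus strand) activates fatty acids to their CoA esters at lipid droplets and the endoplasmic reticulum. It was at 238 and 246 CPM in shCON and 328 and 316 CPM in shETS1, a log2 fold change of 0.41 ± 0.0733.

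In ETS1 siRNA both called members came from this arm. ACLY (chr17:40023170-40086795 on GRCh37, minus strand) was at 277 and 245 CPM in siRNA control and at 173 and 157 CPM in ETS1 siRNA, 1.58-fold lower, with a log2 fold change of -0.66 ± 0.134 and an adjusted p of 0.0632 by edgeR. ACSL3 was at 142 and 133 CPM in siRNA control and at 90.6 and 85.6 CPM in ETS1 siRNA, 1.56-fold lower, with an adjusted p of 0.0638. Neither gene overlapped between groups. The call of ACLY was lost without siRNA control replicate 1 (adjusted p = 0.519) or ETS1 siRNA replicate 2 (0.101), and that of ACSL3 without siRNA control replicate 1 (0.461), siRNA control replicate 2 (0.108) or ETS1 siRNA replicate 2 (0.102).

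ACSL3 was thus called in both knockdowns in opposite directions, and no other member was. SCD, the member that fell most in shETS1, was at 106 and 177 CPM in siRNA control and at 206 and 101 CPM in ETS1 siRNA, so the replicates of each group differed more than the groups. LPIN1 was at 16.6 and 14.6 CPM in siRNA control and 13.6 and 11.8 CPM in ETS1 siRNA, slightly below its controls and not called. FASN was at 133 and 147 CPM in siRNA control and 137 and 97.6 CPM in ETS1 siRNA, and ACACA at 78.1 and 89.6 CPM and then 80.2 and 52.5 CPM. In both, ETS1 siRNA replicate 1 lay between the controls and replicate 2 below them. ELOVL6 and FADS1 had log2 fold changes of -0.25 and -0.29 and were not called (adjusted p = 0.342 and 0.330 by edgeR).

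**Figure D2:**
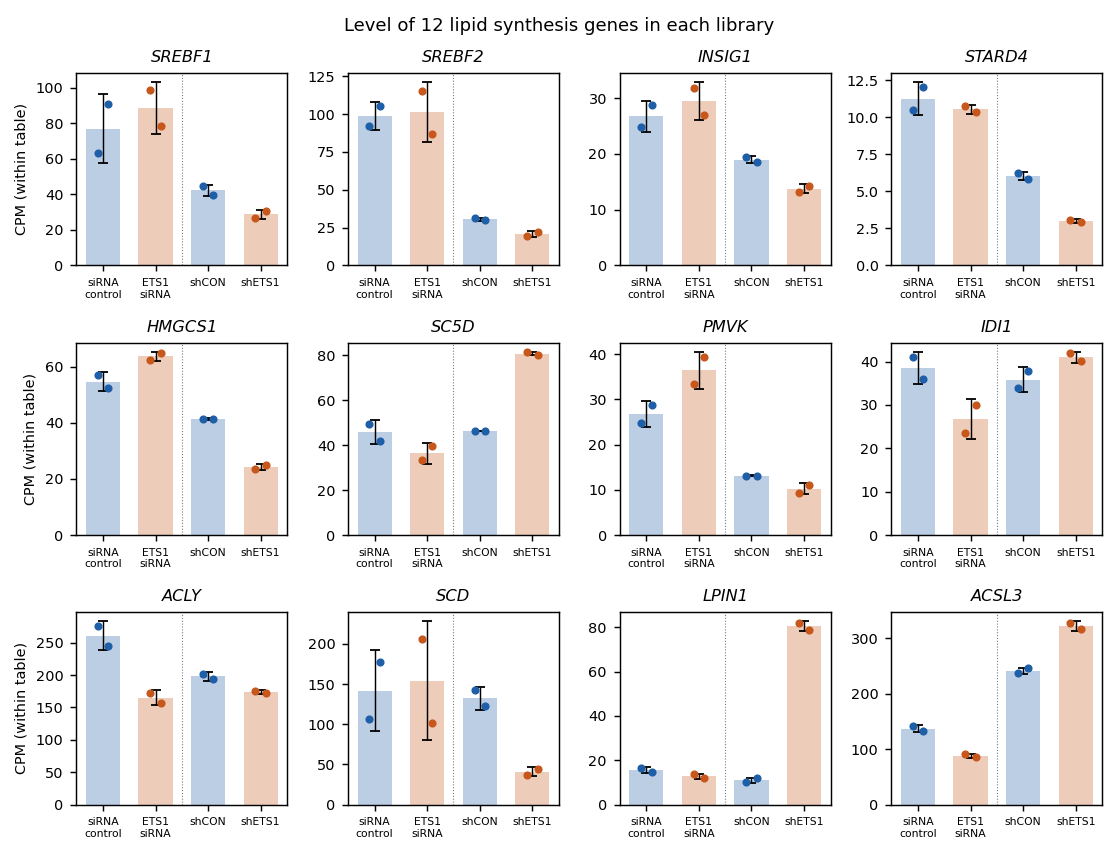
CPM (y axis, scaled within each experiment) of 12 of the genes in each library (points), with the mean (bar) and SD (n = 2), in siRNA control, ETS1 siRNA, shCON and shETS1 (x axis). LPIN1 rises from 10.2 and 11.8 to 82.0 and 78.8 CPM and SCD falls from 142 and 122 to 37.3 and 44.7 CPM in shETS1, while ACSL3 lies below its controls in ETS1 siRNA and above them in shETS1.

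Set side by side, the listed sterol genes had a higher median than the listed fatty acid genes in both knockdowns. The median log2 fold change was 0.10 for sterol and -0.29 for fatty acid genes in ETS1 siRNA, a difference of 0.39. It was -0.03 and -0.50 in shETS1, a difference of 0.47, and the SREBP pathway genes had a median of 0.10 in ETS1 siRNA and -0.55 in shETS1. These differences carry no test, since the arms were chosen with them known. Without ETS1 siRNA replicate 1 the siRNA difference was 0.65, and without shETS1 replicate 1 the shRNA difference was 0.20. The sterol median in shETS1 became 0.06 without shETS1 replicate 2, and the SREBP pathway median in ETS1 siRNA became -0.04 without siRNA control replicate 1. Lipid genes not on the list, described below, had the opposite order in shETS1. Their medians there were -0.15 for sterol synthesis, sensing and uptake and 0.11 for fatty acid and glycerolipid synthesis. In ETS1 siRNA the 2 medians were close, at 0.07 and 0.05.

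Library by library, the mean over sterol genes of log2(CPM + 0.5), set against the control mean, was 0.03 and 0.12 in ETS1 siRNA and 0.01 and -0.04 in shETS1. For fatty acid genes it was -0.15 and -0.46 in ETS1 siRNA and -0.36 and -0.24 in shETS1, below every control library. For SREBP pathway genes it was -0.50 and -0.44 in shETS1, below the controls, and 0.18 and -0.02 in ETS1 siRNA, which overlapped them. The summed level of the 9 fatty acid genes was 820 and 776 CPM in shCON and 743 and 756 CPM in shETS1, and that of the 18 sterol genes was 634 and 645 CPM in shCON and 622 and 600 CPM in shETS1. Each sum was lower in both shETS1 libraries than in both shCON libraries. The fatty acid sum includes LPIN1 and ACSL3, which rose, ACSL3 from 238 and 246 CPM in shCON to 328 and 316 CPM in shETS1.

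**Figure D3:**
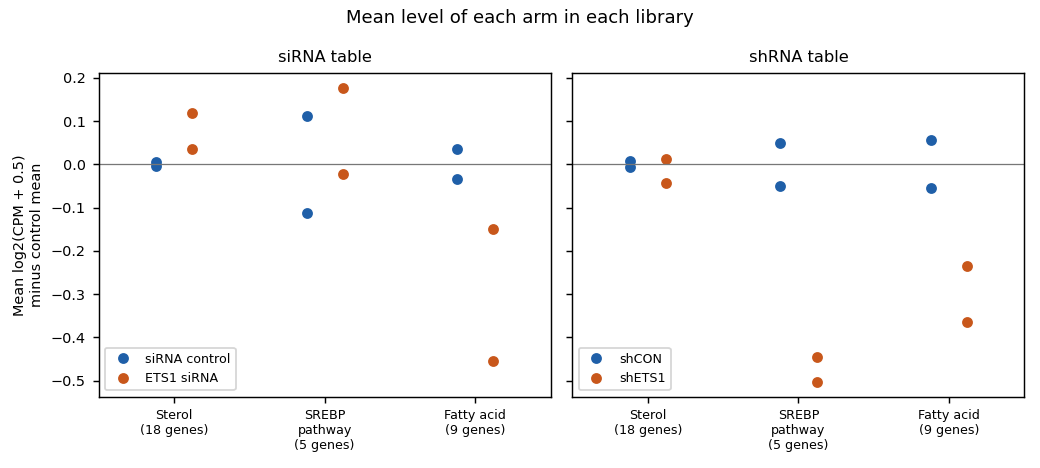
Mean over the genes of each arm (x axis) of log2(CPM + 0.5) minus the control mean (y axis) in each library of the siRNA (left) and shRNA (right) experiments, 1 point a library. Sterol points of shETS1 lie at 0.01 and -0.04, SREBP pathway points at -0.50 and -0.44 and fatty acid points at -0.36 and -0.24.

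The knockdowns differed for many members by a direct test. The shRNA effect minus the siRNA effect, fitted in all 8 libraries and called the interaction, was called for 18 members, 5 higher and 13 lower, where 34.8% of all 17190 genes were called, 15.1% higher and 19.7% lower. Among the 13 were 4 SREBP pathway genes (SREBF1, SREBF2, INSIG1 and STARD4) and HMGCS1, PMVK, FDPS, LSS, NSDHL, EBP, FASN, SCD and ELOVL6. The 5 higher were IDI1, SC5D, ACLY, ACSL3 and LPIN1. The largest was that of LPIN1, at 3.15 ± 0.171, and the largest below 0 was that of SCD, at -1.82 ± 0.423. Time, delivery, the siRNA and hairpin sequences and the experiment itself all differ between the knockdowns and cannot be told apart.

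By sign alone, 9 members were below 0 in both knockdowns, 7 above 0 in both, 5 below 0 in ETS1 siRNA and above 0 in shETS1, and 11 the reverse. Across the 32 genes, which are not independent replicates, Spearman's rho between the log2 fold changes was -0.14, with separate controls in each experiment. Of the fatty acid genes, 6 were below 0 in both (ACLY, ACACA, FASN, ELOVL6, FADS1 and FADS2). The siRNA comparison was the less precise, with a common dispersion of 0.0192 against 0.00402 in the shRNA libraries.

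Genes of the same routes that were not on the list were counted in 4 further lists, to be read against the 29.7% of all genes called higher and 30.9% called lower in shETS1 and the 3.41% called in ETS1 siRNA. Of 8 further genes of sterol synthesis, sensing and uptake that were tested in shETS1, 2 rose and 3 fell, with a median of -0.15, so the share called (62.5%) was near that of all genes (60.6%). MBTPS2, a protease that cleaves the SREBPs in the Golgi, fell from 24.3 and 20.7 CPM to 9.76 and 13.3 CPM, a log2 fold change of -0.96, and shares 12.2% of its exon length with YY2 on the same strand. C14orf1, a scaffold of the sterol demethylation complex, rose from 35.6 and 37.9 CPM to 59.9 and 64.3 CPM, a change of 0.76. In ETS1 siRNA, 1 of these 8 was called, TMEM97, a binding partner of the cholesterol transporter NPC1, which went from 10.9 and 11.9 CPM to 24.0 and 26.5 CPM (1.15). TMEM97 shares 12.3% of its exon length with IFT20 on the opposite strand.

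Of 9 genes of sterol storage, efflux and LXR signalling tested in shETS1, 5 rose and 4 fell, so all 9 were called. SOAT1, which esterifies cholesterol for storage, fell by 0.85 on the log2 scale, and NPC2, which moves cholesterol out of lysosomes, rose by 0.77. None of the 9 was called in ETS1 siRNA, where 2 had an unadjusted p under 0.05 by edgeR, against 2721 of all 14742 genes tested. Of 22 other genes of fatty acid and glycerolipid synthesis, 10 rose and 6 fell in shETS1 (72.7% called), with a median of 0.11. MID1IP1, which activates acetyl-CoA carboxylase, fell by 1.23, and SCD5, another stearoyl-CoA desaturase, rose by 1.13, opposite in direction to SCD. SCD5 was also higher in ETS1 siRNA, at 14.2 and 13.3 CPM against 8.21 and 8.79 CPM (0.69), as was the citrate carrier SLC25A1 (0.73), and these were the 2 called there. Of 8 genes of fatty acid oxidation, 5 rose and 2 fell in shETS1 (87.5% called), among them HADHB of the mitochondrial trifunctional protein (0.73) and the regulator PPARA (-0.76), and none was called in ETS1 siRNA, where 3 had an unadjusted p under 0.05.

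**Figure D4:**
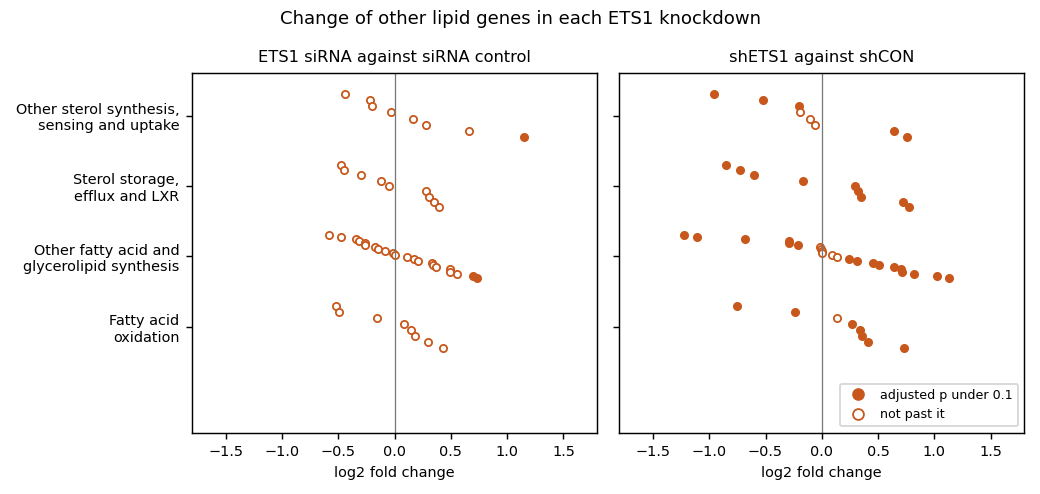
Log2 fold change (x axis) of each tested gene of 4 further lipid lists (y axis) in ETS1 siRNA against siRNA control (left) and shETS1 against shCON (right), with filled circles for an adjusted p under 0.1. In shETS1 the filled points lie on both sides of 0 in each list, from -1.23 for MID1IP1 to 1.13 for SCD5.

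Other lists of genes also changed in the shETS1 libraries. All 12 genes of a proliferation list were called lower, where 30.9% of all genes tested were. Their median log2 fold change was -0.96. The 12 summed to 2852 and 2851 CPM in shCON against 1476 and 1514 CPM in shETS1. All 5 tested of 6 fibroblast markers were called higher, where 29.7% of all genes tested were. The 6 summed to 254 and 279 CPM in shCON and 2232 and 2132 CPM in shETS1. The squamous epithelial markers, 5 called higher and 2 lower of 8, summed to 15261 and 15415 CPM in shCON and 26019 and 25623 CPM in shETS1. The part of these changes, and of the RNAs without a poly(A) tail, in the lipid genes was not tested, and in bulk RNA fewer cells of a type and less RNA per cell cannot be told apart. In ETS1 siRNA the proliferation list had 1 gene called higher and the fibroblast list 1 (COL1A1), where 1.13% of all genes tested were. Adipocyte markers (ADIPOQ, PLIN1, LEP and CIDEC) summed to at most 0.499 CPM in any library and hepatocyte markers (ALB, APOA1, TTR and CYP3A4) to at most 0.396 CPM. Leukocyte markers summed to at most 4.01 CPM. Endothelial markers summed to at most 1.05 CPM in the siRNA libraries and, through KDR, to 24.1 and 23.9 CPM in shETS1.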

How the data were processed

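The authors deposited unnormalized counts of reads by gene symbol, 1 table an experiment. Per the labels, TruSeq libraries were mapped to GRCh37 with TopHat2 2.1.1 and Bowtie2 2.2.6 and counted with featureCounts 1.5.0. The handling of strand and of reads with several matches is not given in the sources used here. The knockdown libraries of each experiment were set against its control libraries with edgeR 4.0.16 in R 4.3.3 (quasi-likelihood F-test, two-sided, TMM scaling, filterByExpr, group only), with Benjamini-Hochberg adjustment over all genes tested and a call at an adjusted p under 0.1. The authors' tool, DESeq2, was run as an alternative in version 1.42.0. The interaction used all 8 libraries, with 1 dispersion a gene for both experiments. Standard errors are the absolute log2 fold change over the square root of F. TPM used merged exon lengths of GENCODE genes lifted to GRCh37, which covered 89.8% to 99.0% of the counts. Of the 56638 symbols, 33514 matched a current name and 1898 an older one.

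The members, the related lists, the tests and the rule for values given in full were chosen with earlier results of these data known. Every member is named. Values in each library are given for the 5 SREBP pathway genes, for the largest rise and fall of the sterol and fatty acid arms in each knockdown where the mean was 5 CPM or more, and for genes called in both knockdowns in opposite directions, and of each related list the 2 called genes that changed most are named. Values of ELOVL6, FASN and ACACA were added after they were seen. Some related genes are not reported here and were left out of the lists. Replicates of each group differed by more than sampling noise (chi-square per degree of freedom 7.00 to 25.7). The siRNA replicates are stated to be biological, and nothing says how the shRNA replicates were obtained, so p-values measure the spread between these libraries. Alternatives were other scalings, filters, DESeq2, a threshold of 0.05, replicate blocks, all 8 libraries in 1 fit and leaving out each library.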

Additional observations from a re-analysis of the deposited data

Results flagged for a closer look

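The change of 18 of the 32 genes differed between the stable and the short-term knockdown by a test of the difference itself, the shRNA effect minus the siRNA effect in 1 fit of all 8 libraries (edgeR, adjusted p under 0.1 over all genes). Of all genes tested 34.8% were called by the same test. It gave each gene 1 spread over both experiments, though the siRNA libraries varied more, so its adjusted p can be too low. Of the SREBP pathway, the difference on the log2 scale was -0.78 for SREBF1, -0.63 for SREBF2, -0.62 for INSIG1 and -0.93 for STARD4, each uncalled after siRNA and lower after shRNA. Of the sterol genes it was -1.01 for HMGCS1, -0.83 for PMVK, -0.39 for FDPS, -0.73 for LSS, -0.71 for NSDHL and -0.68 for EBP, all with siRNA values above 0 and shRNA values below 0. IDI1 and SC5D were the reverse, with differences of 0.70 and 1.11. Of the fatty acid genes it was -0.79 for FASN, -1.82 for SCD and -1.43 for ELOVL6. It was 0.46 for ACLY, lower in both knockdowns and more so after siRNA, and 1.03 for ACSL3 and 3.15 for LPIN1, below 0 after siRNA and above 0 after shRNA. Of the siRNA values behind these differences only those of ACLY and ACSL3 were called. The siRNA values of SREBF1, SREBF2 and SCD turned to -0.036, -0.056 and -0.21 without siRNA control replicate 1, and that of STARD4 to 0.011 without siRNA control replicate 2.

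In the same test 12 of the 18 remained called whichever library was left out. FDPS, SREBF1, SREBF2, INSIG1, ACLY and FASN were lost in at least 1 case, with adjusted p of up to 0.281, 0.139, 0.168, 0.102, 0.140 and 0.126. Experiment, time and delivery cannot be told apart here, and ETS1 itself had log2 fold changes of -4.13 after siRNA and -2.89 after shRNA.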

How the results depend on the processing

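The shRNA count of 27 called members and the interaction count of 18 stayed within 1.5 times under every alternative, at 21 to 27 and 14 to 20. The siRNA count of 2 did not: it was 0 at an adjusted p under 0.05, 4 with no filter on low counts, 7 with all 8 libraries in 1 fit, and 0 to 6 when a library was left out. The siRNA share of all genes called also moved with the setting, so this is not particular to the members. It was 3.41% in the main fit, 1.29% at an adjusted p under 0.05, 5.32% with no filter and 12.6% with all 8 libraries. For shRNA and interaction, the shares of all genes were 29.7% and 16% with no filter. They were 63.4% and 44.6% with at least 10 counts in every library. The sterol minus fatty acid difference ranged from 0.27 to 0.65 in the siRNA and from 0.20 to 0.67 in the shRNA comparison when a library was left out. Of the 27 shRNA calls, 18 held whichever library was left out, and of the 2 siRNA calls none did. The causes were not tested. At the siRNA spread and 2 libraries a group, a log2 fold change of -0.52 (IDI1) was not called.

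The sources used here do not say whether same-numbered libraries were prepared as pairs. Their deviations correlated at -0.54 (siRNA) and -0.20 (shRNA), and 2 pairs are too few to settle it. With the replicate number as a block (replicate block), the members called were 0, 24 and 14 in the siRNA, shRNA and interaction fits, and all genes called 97, 9173 and 4264. With the numbers crossed as a block, an alternative added after seeing the data, members called were 9, 27 and 19 and all genes 3238, 10923 and 7467.

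Some uncalled members changed sign. With library size only, the shRNA values of FDFT1, CYP51A1 and SCAP were -0.070, -0.11 and -0.034, and with at least 10 counts in every library the interaction of SCAP was 0.0080. When a library was left out, siRNA values ranged from -0.044 to 0.24 for ACAT2, -0.20 to 0.042 for SQLE, -0.29 to 0.53 for CYP51A1, -0.030 to 0.10 for TM7SF2, -0.20 to 0.29 for HSD17B7, -0.036 to 0.48 for SREBF1, -0.17 to 0.22 for SREBF2, -0.19 to 0.011 for STARD4 and -0.48 to 0.54 for SCD. The shRNA values ranged from -0.17 to 0.0076 for ACAT2, -0.00044 to 0.10 for FDFT1 and -0.20 to 0.21 for CYP51A1. The interaction ranged from -0.55 to 0.28 for CYP51A1, -0.10 to 0.035 for SCAP and -0.47 to 0.15 for ACACA.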
